A study of Mus musculus with 12 samples.

Results

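Respiratory complex I is the first enzyme of the mitochondrial electron transport chain, and its nuclear genes were read here in polysomal and total RNA of Ddx27-knockout and wild-type C2C12 myoblasts, a mouse muscle precursor cell line. Ddx27 encodes a DEAD-box RNA helicase. All genes whose names begin with Ndufa, Ndufb, Ndufc, Ndufs, Ndufv or Ndufaf were taken, apart from pseudogenes. This gave 45 genes of 13768 listed in either genotype's table: 45 of 13027 in the knockout table and 44 of 13331 in the wild-type table. Ndufa4l2 was the gene listed only for the knockout. The groups were Ddx27-/- polysomal RNA with 3 libraries, Ddx27-/- total RNA with 2 libraries (the labels list 3 samples), wild-type polysomal RNA with 3 libraries and wild-type total RNA with 3 libraries. Polysomal RNA is the RNA recovered from purified polysomes, mRNAs that carry several ribosomes. No drug, clone or culture day is given in the labels, and the labels leave unsaid whether a group's samples were grown apart, so p-values measure only the spread between these samples. Levels are normalised read counts as the authors deposited them, scaled separately for each genotype, and values compared between genotypes were first put on a common scale by the median of ratios.

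Complex I takes electrons from NADH, passes them to ubiquinone and pumps protons across the inner mitochondrial membrane. It has a matrix arm that holds the flavin and the iron-sulfur clusters, and a membrane arm that pumps. The core subunits catalyse the reaction, 7 of them nuclear, Ndufv1, Ndufv2, Ndufs1, Ndufs3, Ndufs7 and Ndufs8 among them, and the rest encoded by mitochondrial DNA. Accessory subunits surround the core and stabilise it: 9 of those listed belong to the matrix arm and 19 to the membrane arm. The Ndufaf genes, 7 in number, encode assembly factors, which act while the complex is built. The last 3 genes stand apart: Ndufa4 is now assigned to complex IV, Ndufa4l2 is its paralog, and Ndufab1 is the mitochondrial acyl carrier protein. Muscle depends on this complex for oxidative energy supply.

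The start regions of these genes are shown because the translation initiator of short 5′ UTRs (TISU), a sequence known to direct initiation on mRNAs with a very short leader, bears on how an mRNA enters polysomes. The letters AAGATGGCG, the core of this element, were searched on both strands from 250 bases before to 50 bases after each annotated start, using RefSeq sequence of GRCm38.p6. Of the 45 genes, 39 had an entry, and 5 of these (12.8%) held the letters, against 443 of all 27025 genes (1.64%). In all 5 the match lay on the coding strand, 22 to 35 bases after the start used in the search. For Ndufs7 that start was not the first annotated base of the gene, which is chr10:80249105. The 30 bases around each match follow, 5′ to 3′ on the gene's strand, with the searched letters in capitals.
Ndufc1 (chr3:51408914-51408943, minus strand): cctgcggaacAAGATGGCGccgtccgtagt
Ndufa9 (chr6:126849096-126849125, minus strand): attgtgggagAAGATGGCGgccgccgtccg
Ndufs7 (chr10:80249463-80249492, plus strand): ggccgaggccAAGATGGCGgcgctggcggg
Ndufs6 (chr13:73328433-73328462, minus strand): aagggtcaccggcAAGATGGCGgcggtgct
Ndufs4 (chr13:114388045-114388074, minus strand): gcgtttgcctacaggAAGATGGCGgcggtc
A match is a description of these letters, not a site in use.

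NRF1 is a transcription factor known for binding the promoters of respiratory chain genes. The letters GCGCATGCG, taken for its site and searched on both strands, stood in 4 of the 39 promoters (10.3%), against 1.95% of all genes. These 4 are shown because they include Ndufaf4 and Ndufaf5, which were called in opposite directions between the genotypes, but in different kinds of RNA. Knockout over wild type, Ndufaf5 was higher in total RNA (log2 fold change 0.82) and Ndufaf4 lower in polysomal RNA (-0.77). Neither was called in the other kind, with 0.01 for Ndufaf5 in polysomal RNA and 0.23 for Ndufaf4 in total RNA. Both calls were lost in some settings, given below. Ndufa8 and Ndufa11 were called in neither kind of RNA. Whether the letters bear on these calls was not tested. In Ndufaf5, Ndufaf4 and Ndufa11 the letters matched both strands at overlapping positions, of which the coding-strand match is shown. For Ndufaf5 the start used in the search was not the first annotated base of the gene, which is chr2:140170584.
Ndufa8 (chr2:36049328-36049357, minus strand): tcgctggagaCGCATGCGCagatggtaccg
Ndufaf5 (chr2:140170652-140170681, plus strand): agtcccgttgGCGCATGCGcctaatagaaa
Ndufaf4 (chr4:24897960-24897989, plus strand): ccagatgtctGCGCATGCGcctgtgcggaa
Ndufa11 (chr17:56717692-56717721, plus strand): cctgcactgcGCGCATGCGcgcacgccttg
CCGGAAG, the core that ETS factors such as GABP bind, was found on either strand in 5 of the 39 promoters (12.8%), against 9.93% of all genes.

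The libraries held 13683674 to 27347878 reads in the listed genes. Ddx27 itself averaged 42.8 ± 11.3 in knockout polysomal RNA (SD, n = 3) and 44.7 ± 3.98 in knockout total RNA (n = 2), against 182 ± 34.2 in wild-type polysomal RNA and 140 ± 4.84 in wild-type total RNA (n = 3 each, common scale). Reads of 3 gene models were taken as ribosomal RNA-like, the protein-coding gene Lars2 among them. They took 22.9, 32.4 and 0.381% of knockout polysomal libraries 1, 2 and 3. In wild-type polysomal libraries 1, 2 and 3 they took 5.85, 14.4 and 0.663%, and in the total RNA libraries 0.0532 to 0.134%. Replicates differed by more than counting error, with a chi-square per degree of freedom of 4 to 581. The 2 knockout total RNA libraries stood apart from each other in the complex I genes, as described below. Of 8 myoblast markers, 7 were listed for the knockout, without Pax7, and 8 for the wild type. Their summed deposited level, scaled separately for each genotype, was 806 to 1036 in knockout polysomal and 1514 to 1698 in knockout total RNA. In the wild type, where the sum includes Pax7, it was 1268 to 1326 in polysomal and 3724 to 5044 in total RNA. The 6 markers of differentiated muscle summed to 9.93 to 18.7, 139 to 155, 18.9 to 29.4 and 293 to 768 in these same groups. Of 5 fibroblast markers, 2 were listed for the knockout and 3 for the wild type. They summed to 7.28 to 11.2, 15.3 to 19.9, 5.16 to 12 and 37.7 to 58.5. Of 4 adipocyte markers, 1 was listed for each genotype, at 23.9 to 26.2, 24.2 to 29.7, 24.2 to 28.6 and 18.4 to 25.7. Of 4 leukocyte markers, 2 were listed for the knockout and 1 for the wild type. Of 4 epithelial markers, 0 and 1 were listed. No endothelial marker was listed. The part of marker level, of ribosomal RNA-like share and of library differences in the results below was not tested.

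Levels between genes were compared per kilobase of the deposited gene length. In wild-type total RNA the highest level was that of Ndufa4, at 366 ± 36 normalised read counts per kilobase (SD, n = 3), followed by Ndufb9 at 282 ± 31.1 and Ndufa8 at 173 ± 4.94. Ndufb9 and Ndufa8 are accessory subunits of the membrane arm. Each of these gaps exceeded the SD of both neighbours, whereas Ndufa8's followers Ndufa6, Ndufa2, Ndufs8 and Ndufb10, at 158 to 139 per kilobase, lay within each other's spread from one neighbour to the next. Ndufab1 had the lowest level at 1.66 ± 0.409, below Ndufb2 at 5.33 ± 0.295 and Ndufaf6 at 6.31 ± 0.892. Ndufab1 also has the longest deposited length, 6848 bases. The core subunits spanned 17.1 per kilobase for Ndufs3 to 139 for Ndufs8, with a median of 84. The assembly factors spanned 6.31 for Ndufaf6 to 23.2 for Ndufaf2, with a median of 10.5, so every one of the 7 lay below the core median. Ndufb4, Ndufs5, Ndufs6, Ndufa11, Ndufa12 and Ndufab1 have near-identical copies in the annotation, and their levels are uncertain where the counting split reads. Ndufa4l2, known as a hypoxia-induced gene, was near the limit of counting, with deposited levels of 1.29, 0.342 and 0.172 in knockout polysomal libraries 1 to 3 and 0.165 and 0.0405 in the knockout total libraries. A count of 0 would allow 0.0989 to 0.257 at these depths, and Ndufa4l2 was not tested.

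The first comparison asks how the level of complex I mRNA, relative to the other genes, differed between knockout and wild-type total RNA. In total RNA, 4 of the 44 tested genes were higher in the knockout and 0 were lower. They were Ndufa2 and Ndufs4, accessory subunits of the matrix arm, Ndufv1, the core subunit that binds NADH, and Ndufaf5, an assembly factor that hydroxylates Ndufs7. Across all 12463 genes tested, 4.73% were called higher and 5.79% lower. By edgeR 7 complex I genes were higher and 0 lower, and by limma 29 had an unadjusted p under 0.05. The estimate was positive for 44 of the 44 genes, with a median log2 fold change of 0.92, whereas the median of all genes was -0.01. In bulk RNA, fewer cells of a type and less RNA per cell cannot be told apart.

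Ndufv1 (chr19:4007499-4012755) had a normalised read count of 309 and 442 in the knockout total RNA libraries 1 and 2, against 208, 196 and 196 in wild-type total RNA. The knockout libraries were both above every wild-type library, and the log2 fold change was 0.88 ± 0.198 (SE, limma adjusted p = 0.018). Ndufs4, which is needed for a stable NADH-binding part of the matrix arm, had 87.8 and 179 in the knockout, against 50, 53.9 and 37.5 in the wild type. Its log2 fold change was 1.41 ± 0.366 (adjusted p = 0.034). Ndufa2 (chr18:36742332-36744587), a small matrix-arm subunit, had 196 and 546 in the knockout, against 79.6, 87.7 and 67.8 in the wild type, a log2 fold change of 2.06 ± 0.574 (adjusted p = 0.0434). This was the highest estimate among the 44 genes, and the knockout libraries themselves differed more from each other than library 1 did from the wild type. Ndufaf5 had 29.1 and 41.9 in the knockout, against 22.5, 20.9 and 15.6 in the wild type, a log2 fold change of 0.82 ± 0.233 (adjusted p = 0.0468). The call on Ndufaf5 was lost on the deposited scale (0.70, limma adjusted p = 0.0804). It was also lost with the length trend removed against wild-type total RNA (0.56, adjusted p = 0.115). Leaving out wild-type polysomal replicate 1 or 3, or knockout polysomal replicate 2 or 3, lost it as well. All of these but wild-type polysomal replicate 3 also lost the call on Ndufa2.

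The other core subunits were not called. Ndufs3, a subunit of the matrix arm, had 62.6 and 63.6 in the knockout total RNA, against 39.7, 37.5 and 42.6 in the wild type, with a log2 fold change of 0.65 ± 0.191 (adjusted p = 0.0525). Ndufs1, the largest core subunit and the holder of several iron-sulfur clusters, had 185 and 178 in the knockout, against 149, 144 and 122 in the wild type (adjusted p = 0.399). In both genes the groups did not overlap and the knockout libraries lay close together. Ndufv2, which forms the NADH-oxidising part with Ndufv1, had 232 and 566 in the knockout, against 166, 177 and 176 in the wild type (adjusted p = 0.0643). The log2 fold changes of Ndufs7 and Ndufs8 were 0.85 and 0.89, neither of them called. By role, the median log2 fold change was 0.85 for the 7 core subunits, 1.05 for the 19 accessory subunits of the membrane arm and 0.82 for the 7 assembly factors, and it was highest for the 9 accessory subunits of the matrix arm, which ranged from 0.19 to 2.06. The lowest estimates were those of Ndufa9, an accessory subunit at the junction of the arms, at 0.19 ± 0.204, and of Ndufaf4, at 0.23 ± 0.223.

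Both knockout libraries were above all 3 wild-type libraries for 41 of the 44 genes, and 0 genes had both below. Among all genes tested the shares were 31.2% above and 33.2% below. The 3 genes that overlapped were Ndufa9, Ndufaf4 and Ndufaf6. The size of the difference depended on the knockout library: against the mean of wild-type total RNA, the median of the complex I genes was 0.54 in knockout total library 1 and 1.42 in library 2. Without library 2, 0 genes were called by limma, with 2 at an unadjusted p under 0.05, and without library 1, 9 were called. Leaving out any of the wild-type total replicates also gave 0 calls, with 16 to 21 at an unadjusted p under 0.05, while the median remained at 0.91 to 0.95; leaving out wild-type polysomal replicate 2, which enters the shared spread, gave 26 calls, and leaving out knockout polysomal replicate 1 gave 10.

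**Figure D1:**
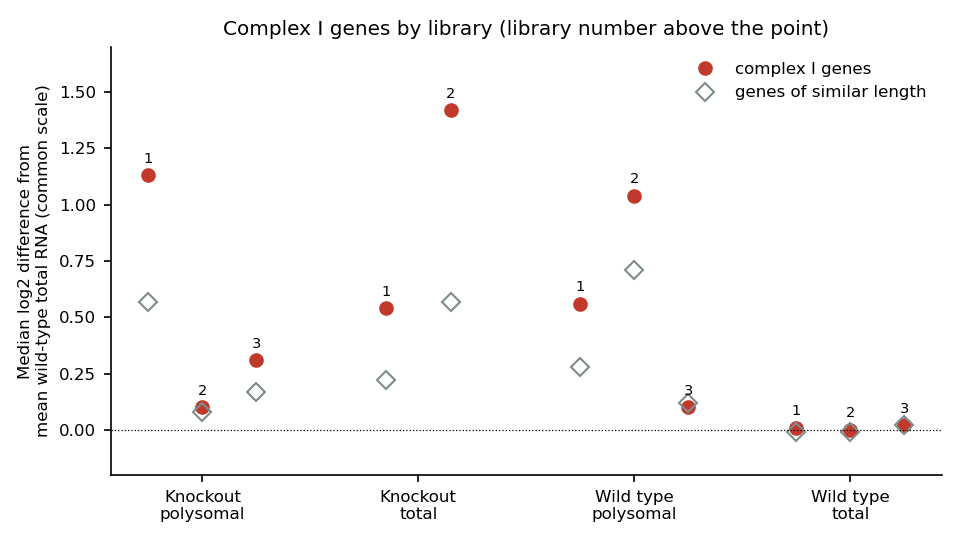
Median log2 difference of the complex I genes (filled points, numbered by library) and of genes of similar length (open diamonds) from the mean of wild-type total RNA, on the common scale, for each of the 11 libraries. Knockout total library 2 has the highest median, 1.42, and the 3 wild-type total libraries lie at 0.00 to 0.02.

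The deposited lengths of the complex I genes were short, with a median of 1401 bases, against 3440 for all genes, and shorter genes were higher in knockout than in wild-type total RNA as a class. Each gene was therefore set against the other genes of similar length, those for which the shorter of the 2 lengths was at least 0.8 of the longer. The median of these similar-length genes was 0.38 in knockout over wild-type total RNA, and the complex I genes exceeded it by a median of 0.60, with 42 of 44 above. The excess was highest for Ndufa2 at 1.61, Ndufb7 at 1.59 and Ndufs4 at 1.06. Ndufb7, an accessory subunit of the membrane arm with a deposited length of 4692 bases, had 188 and 382 in knockout total RNA, against 90.8, 92.1 and 109 in wild-type total RNA (log2 fold change 1.46 ± 0.469, adjusted p = 0.0691). The excess was negative for Ndufa9 at -0.23 and Ndufaf6 at -0.03. By knockout library the median excess was 0.36 in library 1 and 0.88 in library 2. On average 7.05% of the similar-length genes were called higher and 2.74% lower, against 9.09% and 0% of the complex I genes.

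**Figure D2:**
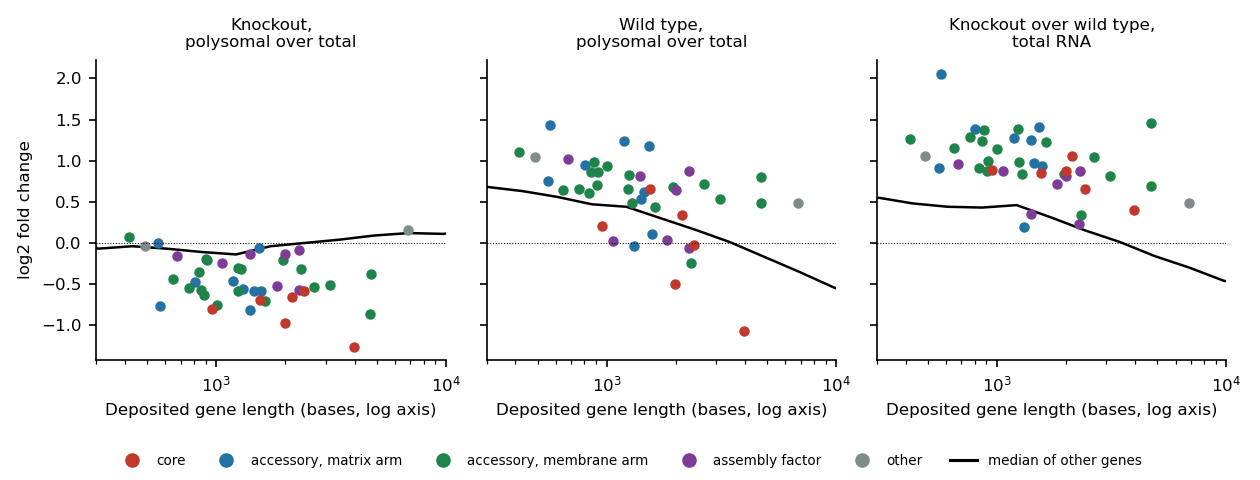
Log2 fold change of each complex I gene against its deposited length (log axis), coloured by role and with 1 gene not drawn, with the median of all other genes in bins of length as a black line; knockout polysomal over total RNA, wild-type polysomal over total RNA, and knockout over wild-type total RNA. The complex I genes lie mostly below the line in the knockout panel, and mostly above it in the wild-type panel and in total RNA.

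In polysomal RNA the estimates scattered around 0. Knockout over wild type, 0 of the 44 genes were higher and 1 was lower, against 4.82% higher and 3.50% lower among all genes tested. By edgeR the counts were also 0 and 1, and 2 genes had an unadjusted p under 0.05 by limma. The median log2 fold change was -0.08, with 19 estimates above 0 and 25 below, and the median of all genes was 0.00. The lower gene was Ndufaf4 (chr4:24898083-24905001), an assembly factor that acts with Ndufaf3 early in assembly.

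Ndufaf4 had 28.5, 26.8 and 23.3 in the knockout polysomal libraries, against 51.3, 43.2 and 41.8 in the wild-type ones. The groups did not overlap, and the log2 fold change was -0.77 ± 0.2 (adjusted p = 0.0356). In total RNA the same gene had 22.9 and 35.9 in the knockout, against 26.4, 24.1 and 22.6 in the wild type, with overlapping groups. The call on Ndufaf4 was lost without any one of the 3 knockout polysomal replicates, the 3 wild-type total replicates or wild-type polysomal replicates 1 and 3 (estimates -0.83 to -0.68, adjusted p 0.0512 to 0.152). It was also lost with the length trend removed within each genotype (-0.54, adjusted p = 0.0528). Ndufaf6, another assembly factor, had 11.2, 9.24 and 8.86 in knockout polysomal RNA, against 16.5, 15.8 and 14.6 in wild-type polysomal RNA, and was not called (log2 fold change -0.63 ± 0.237, adjusted p = 0.134).

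Besides Ndufaf4 and Ndufaf6, Ndufa9 had all knockout polysomal libraries below all wild-type ones. Another 3 genes, Ndufa10 and Ndufv1 among them, had all knockout polysomal libraries above. These 3 genes below and 3 above compare with 11.0% and 12.6% of all genes tested. Ndufv1 had 211, 164 and 178 in knockout polysomal RNA, against 149, 137 and 139 in wild-type polysomal RNA (log2 fold change 0.37 ± 0.177, adjusted p = 0.238). This difference did not pass the test. Ndufaf3 had the highest estimate, 0.56 ± 0.333, and Ndufc2, a membrane-arm subunit, had -0.59 ± 0.427. Relative to genes of similar length, the median excess was 0.08, with 26 genes above and 18 below.

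**Figure D3:**
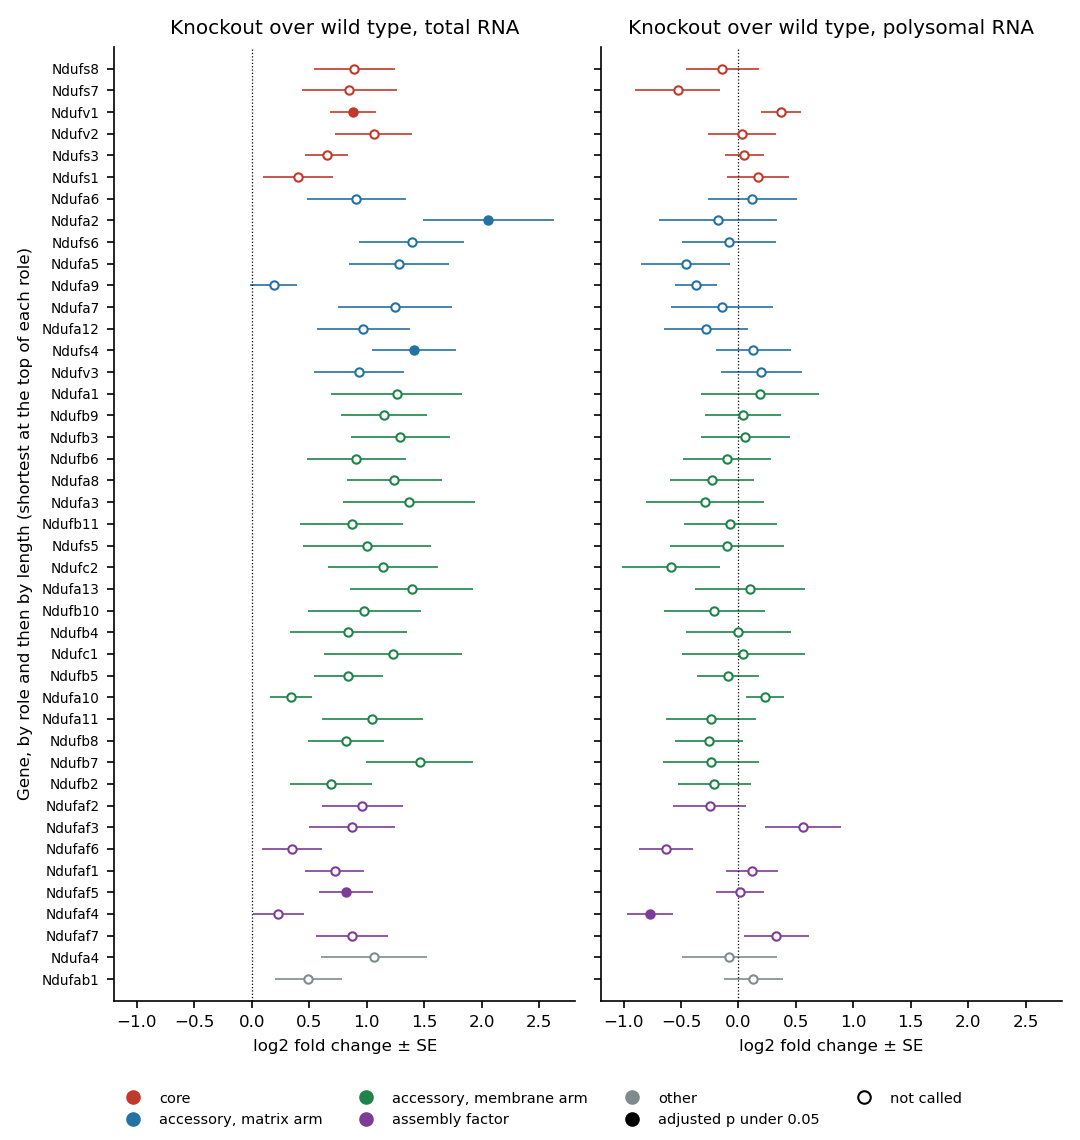
Log2 fold change of each complex I gene in knockout over wild type, with its standard error, in total RNA (left) and polysomal RNA (right); genes are ordered by role and length, 1 gene is not drawn, and filled points have an adjusted p under 0.05. The drawn estimates in total RNA are all above 0, and those in polysomal RNA scatter around 0 with Ndufaf4 as the 1 called gene.

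The next question is which complex I mRNAs were enriched in polysomes of each genotype. In the knockout, 0 of the 44 genes were higher in polysomal than in total RNA and 1 was lower, Ndufs1. Among all 12070 genes tested, 0.911% were higher and 1.85% lower. The estimate was below 0 for 41 of the 44 genes, with a median of -0.51, and the median of all genes was 0.04. EdgeR gave the same counts of 0 and 1, and 6 genes had an unadjusted p under 0.05 by limma.

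Ndufs1 (chr1:63143592-63176822) had a deposited level of 63.4, 90.1 and 64 in knockout polysomal RNA, against 175 and 169 in knockout total RNA. The polysomal libraries all lay well below both total libraries, and the log2 fold change was -1.26 ± 0.244 (adjusted p = 0.0358). Ndufv1 had 205, 158 and 176 in knockout polysomal RNA, against 292 and 418 in knockout total RNA (log2 fold change -0.97 ± 0.257, adjusted p = 0.0834). Ndufs3 had 42.9, 32.7 and 45, against 59.3 and 60.3 (-0.58 ± 0.24, adjusted p = 0.199). In these core genes the groups did not overlap, but only Ndufs1 passed the test. In the authors' deposited table, Ndufs1 and Ndufv1 were lower at their FDR of 0.05, with 0 complex I genes higher; 3.42% of all genes in that table were higher and 4.84% lower.

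All polysomal libraries were below both total libraries for 8 genes, among them Ndufs1, Ndufs3, Ndufv1, Ndufa9, Ndufa10, Ndufaf1 and Ndufaf7, and above them for 0 genes. Among all genes tested, 18.3% were below and 22.3% above. The 8 of 44 complex I genes below thus came close to the share among all genes. The median was -0.69 for the core subunits, -0.56 for the matrix-arm accessory subunits, -0.44 for those of the membrane arm and -0.16 for the assembly factors. The estimates nearest to or above 0 were those of Ndufab1 at 0.16, Ndufa1 at 0.07 and Ndufa6 at 0.00, and after Ndufs1 and Ndufv1 the lowest were Ndufb7 at -0.86 and Ndufa7 at -0.81. The similar-length genes had a median of -0.08, and the complex I genes differed from it by a median of -0.45, with 39 of 44 below.

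The same libraries decide the size of this difference. Without knockout total library 2 the median was -0.03, without library 1 it was -0.86, and in both cases limma called 0 genes, with 1 and 15 at an unadjusted p under 0.05 and Ndufs1 at -1.28 and -1.23. Without knockout polysomal library 1, 8 genes were lower, and without library 3 none was called by limma, with 2 at an unadjusted p under 0.05. Knockout polysomal libraries 1, 2 and 3 had medians of 0.15, -0.85 and -0.60 against knockout total RNA, so library 1 went the other way from the other two.

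In the wild type, 8 of the 44 genes were higher in polysomal than in total RNA and 0 were lower. The higher genes were the matrix-arm accessory subunits Ndufa2, Ndufa5, Ndufs4 and Ndufs6, the membrane-arm subunit Ndufb5, and the assembly factors Ndufaf2, Ndufaf4 and Ndufaf6. Among all 12380 genes tested, 8.89% were higher and 13.8% lower. Among genes of similar length, on average 14.1% were higher and 6.03% lower. The shares of the complex I genes were 18.2% and 0%. By edgeR 9 complex I genes were higher and 0 lower, and 20 had an unadjusted p under 0.05 by limma. The median log2 fold change of the complex I genes was 0.64, with 37 of 44 estimates above 0, and the median of all genes was -0.02. The core subunits had a median of -0.02 and none was called, whereas the medians of the other roles were 0.64 to 0.77.

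Ndufa5, a subunit of the matrix arm, had a deposited level of 121, 84.9 and 67.3 in wild-type polysomal RNA, against 35.7, 37.9 and 37.1 in wild-type total RNA. Every polysomal library was above every total library, and the log2 fold change was 1.24 ± 0.233 (adjusted p = 0.0117). Ndufaf2, a paralog of Ndufa12 that binds the late assembly intermediate, had 40.2, 27.7 and 31.4, against 14.6, 16.5 and 15.8 (1.02 ± 0.2, adjusted p = 0.0136). Ndufaf4 had 54.5, 42.1 and 44.1, against 27.4, 24.9 and 23.1 (0.87 ± 0.183, adjusted p = 0.0168). Ndufs4 had 153, 99.1 and 88.3, against 51.8, 55.7 and 38.5 (1.18 ± 0.257, adjusted p = 0.0186). Ndufaf6 had 17.6, 15.4 and 15.5, against 9.51, 9.62 and 7.4 (0.81 ± 0.193, adjusted p = 0.0252). In each of these genes every polysomal library was above every total library. Ndufa2 was the most uneven of the 8, with 221, 408 and 115 in polysomal RNA, against 82.4, 90.8 and 69.5 in total RNA (1.43 ± 0.418, adjusted p = 0.0464). Ndufs6, a zinc-binding subunit, and Ndufb5 had log2 fold changes of 0.95 ± 0.26 (adjusted p = 0.0387) and 0.68 ± 0.189 (adjusted p = 0.0399).

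The core subunits divided among themselves in the wild type. Ndufs1 had 99.1, 40.1 and 76.2 in polysomal RNA, against 154, 149 and 126 in total RNA (log2 fold change -1.07 ± 0.322, adjusted p = 0.0504). Ndufv1 had 158, 134 and 147, against 215, 202 and 201 (-0.50 ± 0.155, adjusted p = 0.0559). In both genes every polysomal library was below every total library, and each missed the threshold narrowly. Ndufs3 overlapped, with 45.1, 34.7 and 42.9 in polysomal RNA, against 41.1, 38.8 and 43.7 in total RNA. Ndufs7, Ndufv2 and Ndufs8 had positive estimates of 0.65, 0.34 and 0.20, none of them called.

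**Figure D4:**
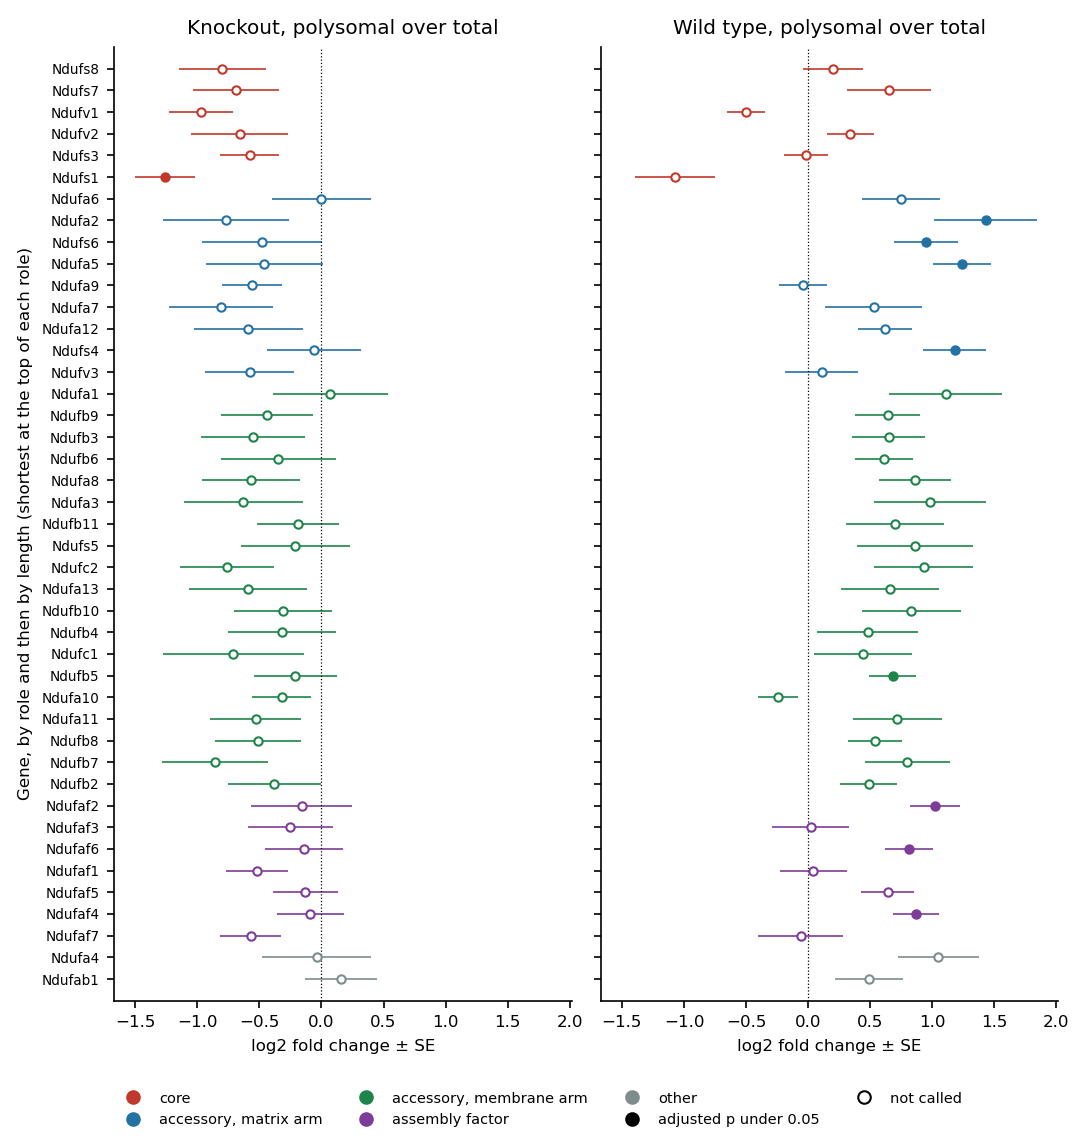
Log2 fold change of each complex I gene in polysomal over total RNA, with its standard error, in the knockout (left) and the wild type (right), on the same axis; genes are ordered by role and length, 1 gene is not drawn, and filled points have an adjusted p under 0.05. Most estimates lie below 0 in the knockout and above 0 in the wild type, and Ndufs1 is the lowest in both panels at -1.26 and -1.07.

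Every wild-type polysomal library was above every total library for 22 genes and below for 4, Ndufs1, Ndufv1 and Ndufa10 among them. Among all genes tested these shares were 23.2% and 27.7%. In the authors' deposited table, 16 complex I genes were higher and 1, Ndufs1, was lower at their FDR of 0.05, against 13.0% and 14.3% of all genes in that table. Short genes were higher in wild-type polysomal RNA as a class: the similar-length genes had a median of 0.36, and the complex I genes exceeded it by a median of 0.29, with 33 of 44 above. The largest excess was that of Ndufb7 at 0.95, followed by Ndufa2 at 0.86, Ndufa5 at 0.84, Ndufs4 at 0.83 and Ndufab1 at 0.83. The most negative was that of Ndufs1 at -1.0, and further negative ones were those of Ndufv1 at -0.73, Ndufa9 at -0.44 and Ndufa10 at -0.42. With the length trend taken out of every library, 4 genes were higher, Ndufa5, Ndufaf4, Ndufs4 and Ndufab1, and 3 were lower, Ndufs1 and Ndufv1 among them.

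Wild-type polysomal libraries 1, 2 and 3 had complex I medians of 0.61, 0.96 and 0.13 against wild-type total RNA, and the similar-length genes had 0.33, 0.63 and 0.16 in the same libraries. Library 3 thus showed no excess, at -0.01. Leaving out any of the wild-type total replicates gave 0 calls, with 11 to 14 genes at an unadjusted p under 0.05 and medians of 0.64 to 0.67. Leaving out polysomal replicates 1, 2 and 3 gave 4, 18 and 20 higher genes, and without replicate 2 3 genes were lower, Ndufs1 and Ndufv1 among them.

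The 5 genes with the TISU core did not move as a block. In wild-type polysomal over total RNA their log2 fold changes were 1.18 for Ndufs4, 0.95 for Ndufs6, 0.65 for Ndufs7, 0.44 for Ndufc1 and -0.04 for Ndufa9. In the knockout the estimates were -0.06 for Ndufs4, -0.48 for Ndufs6, -0.69 for Ndufs7, -0.71 for Ndufc1 and -0.56 for Ndufa9. Both sets lie within the range of the other complex I genes.

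The design also allows the polysomal enrichment of the genotypes to be compared directly, as knockout enrichment minus wild-type enrichment. No complex I gene passed this test: 0 were higher and 0 lower by limma, with 19 at an unadjusted p under 0.05, and 0 by edgeR, with 23. Among all 12463 genes, 0.193% were called higher and 0.0481% lower. The estimate was below 0 for 44 of 44 genes, with a median of -1.06, while the median of all genes was 0.05 and that of the similar-length genes was -0.50. The median difference from similar-length genes was -0.58, with 41 of 44 below. Each estimate rests on the same knockout and wild-type total libraries that entered the comparisons above, so it is not a separate line of data.

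Ndufa2 had the most negative difference, -2.24 ± 0.77 (adjusted p = 0.155), followed by Ndufa5 at -1.74 ± 0.581 (adjusted p = 0.149) and Ndufc2 at -1.73 ± 0.64 (adjusted p = 0.179). Ndufaf4 had the smallest unadjusted p, with a difference of -1.0 ± 0.299 (adjusted p = 0.128). The core subunits had a median of -0.60: Ndufs1 at -0.23 ± 0.406 and Ndufv1 at -0.51 ± 0.266 had small estimates, and Ndufs7 had the most negative at -1.38 ± 0.556. Ndufa10, an accessory subunit of the membrane arm, was nearest to 0 at -0.11 ± 0.25. Without knockout total library 2 the median difference was -0.60, and without library 1 it was -1.52, with Ndufa5 called lower.

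**Figure D5:**
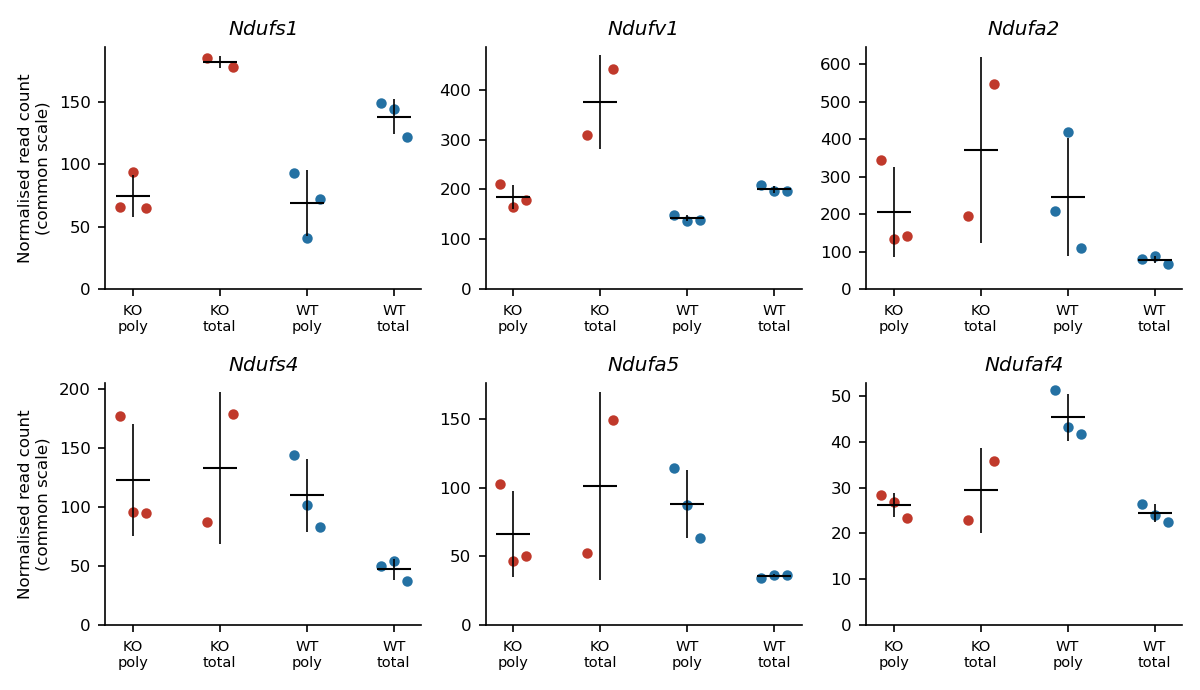
Normalised read counts on the common scale of Ndufs1, Ndufv1, Ndufa2, Ndufs4, Ndufa5 and Ndufaf4 in each library (points), with the mean (bar) and SD (line) of knockout polysomal, knockout total, wild-type polysomal and wild-type total RNA. For Ndufs1 every polysomal library lies below every total library of its genotype, Ndufa2, Ndufs4 and Ndufa5 have their lowest mean in wild-type total RNA, and Ndufaf4 has its highest mean in wild-type polysomal RNA.

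Other genes of the pathway were read from 3 lists. Their calls are from the limma fit with all libraries, and the alternative settings were not read for them. Of the 7 complex I subunits encoded by mitochondrial DNA, 5 were tested. In polysomal RNA, knockout over wild type, 4 of these 5 were higher and 0 lower: mt-Nd2 with a log2 fold change of 1.49 ± 0.273 (adjusted p = 0.00676), mt-Nd4 with 1.46 ± 0.322 (adjusted p = 0.0173), mt-Nd5 with 1.55 ± 0.385 (adjusted p = 0.0307) and mt-Nd1 with 1.05 ± 0.286 (adjusted p = 0.0441). These mRNAs are translated on mitochondrial ribosomes. Among all genes tested, 4.82% were higher and 3.50% lower in this comparison. In total RNA 0 of the 5 were called, with 0 at an unadjusted p under 0.05. The estimates there were also positive, from 0.44 to 1.36, with a median of 0.58. In wild-type polysomal over total RNA mt-Nd1 (-1.43 ± 0.219, adjusted p = 0.00631) and mt-Nd2 (-1.60 ± 0.254, adjusted p = 0.007) were lower, while in the knockout 0 of 5 were called and 2 had an unadjusted p under 0.05. Compared directly, knockout enrichment minus wild-type enrichment was called for 0 of the 5. The estimates ran from 0.47 to 1.03, with 1 at an unadjusted p under 0.05 by limma.

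Of 14 further assembly factor names outside the Ndufaf family, 11 were tested. Tmem70 was higher in knockout than in wild-type total RNA (0.83 ± 0.204, adjusted p = 0.0264), and Timmdc1, a membrane-arm assembly factor, was higher in wild-type polysomal than in total RNA (0.61 ± 0.161, adjusted p = 0.034). Their medians were 0.46 in knockout over wild-type total RNA and 0.31 in wild-type polysomal over total RNA. Of 9 regulators of respiratory gene expression, Ppargc1b, a coactivator, was lower in knockout than in wild-type total RNA (-1.13 ± 0.227, adjusted p = 0.0103) and lower in wild-type polysomal than in total RNA (-0.64 ± 0.183, adjusted p = 0.0444). Nrf1 mRNA was lower in knockout than in wild-type polysomal RNA (-0.81 ± 0.193, adjusted p = 0.0263) and higher in wild-type polysomal than in total RNA (0.84 ± 0.197, adjusted p = 0.0233). The other tested regulators, 6 in the comparisons between genotypes, were not called. Among all genes tested, 4.73% were higher and 5.79% lower in knockout over wild-type total RNA. In wild-type polysomal over total RNA these shares were 8.89% and 13.8%.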

How the data were processed

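Reads were processed with STAR, HTSeq and edgeR against mm10, per the submitters' processing notes, which give no versions or order. The authors deposited 1 table per genotype with a gene length in bases and a signal per library, a normalised read count: all values (100%) were whole reads times 1 factor per library within 0.001 reads. The word CPM stands in the file names, yet the columns summed to 847338 to 1215073. The authors' deposited log2 fold change and FDR (an adjusted p-value) were used only where named. The test had been planned for CPM and was used as planned.

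Genes that reached 1 normalised read count in 3 or more libraries were tested with limma 3.58.1 (R 4.3.3; linear model with mean-variance trend) on log2 of the value plus 1, which understates the changes of low genes, with Benjamini-Hochberg adjustment over all genes tested and a threshold of 0.05. Polysomal over total RNA used the deposited scale within a genotype. Comparisons between genotypes used the 12590 genes in both tables and all 11 libraries on 1 median-of-ratios scale, with 4 group means. EdgeR 4.0.16 was run on the recovered reads as an alternative. The fits were also run on simulated reads with a fixed spread and no library-wide or length-dependent shifts. The real libraries hold such shifts, so that run cannot show how the calls behave under them. Other alternatives were pseudocounts, filters, scalings, removal of the length trend (a lowess curve per library) and leaving out each library. Knockout libraries carry the numbers of their table columns, not of the labels. A value of 0 allows up to 3 reads, and this floor covers counting error only.

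Genes called, core subunits, and the highest and lowest of each role, level or excess over similar-length genes are named. The TISU genes were named for their sequence. The NRF1 genes were named for their sequence and because they include the called genes Ndufaf4 and Ndufaf5. The members, lists and motifs were chosen with earlier results of these data known. Coordinates are from RefSeq GRCm38.p6, which matched 45 of 45 genes. For 1 gene, which stays in all counts and medians, no values of its own are reported here.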

Additional observations from a re-analysis of the deposited data

How the results depend on the processing

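Pseudocounts of 0.25 and 5, filters, the deposited scale and median-of-ratios scaling left the direction of every median in place and the counts of called complex I genes within 1.5 times, except that in wild-type polysomal over total RNA 1 gene (Ndufs1) was lower with a pseudocount of 5, with median-of-ratios scaling and with quantile normalization. On the deposited scale the median of all genes in knockout over wild-type total RNA was -0.12 and that of the complex I genes 0.80; 430 genes were higher and 1023 lower, against 589 and 721 on the common scale. In polysomal RNA these were 502 and 605 against 601 and 436. Quantile normalization gave 0 lower genes in knockout polysomal over total RNA and a median of 0.03 in knockout over wild-type polysomal RNA. Removing the length trend within each genotype's own total RNA gave 4 higher and 3 lower genes in the wild type, 2 lower in the knockout, 28 higher in knockout over wild-type total RNA, and 5 higher and 0 lower with a median of 0.40 in polysomal RNA. That curve is set against each genotype's own total RNA, so it cannot remove a length trend between the genotypes' total RNA. The median in knockout over wild-type total RNA accordingly remained at 0.92. A curve against wild-type total RNA, chosen after seeing the data, gave 5 higher genes and a median of 0.59 in total RNA. In polysomal RNA it gave 0 higher and 1 lower gene, Ndufaf4, and a median of 0.04. EdgeR called 7 higher in knockout over wild-type total RNA. Over all genes, removal of the length trend called 573 higher and 905 lower in the knockout, against 110 and 223, and 87 and 54 in the difference between genotypes, against 24 and 6.

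Leaving out 1 library at a time gave 0 to 20 higher and 0 to 3 lower genes in wild-type polysomal over total RNA, 0 to 8 lower in knockout polysomal over total RNA, 0 to 26 higher in knockout over wild-type total RNA, 0 to 1 lower in polysomal RNA and 0 to 1 lower in the difference between genotypes. The medians ran from 0.39 to 0.90, from -0.86 to -0.03, from 0.54 to 1.42, from -0.39 to 0.14 and from -1.52 to -0.60 in the same order, and the median excesses from 0.16 to 0.47, from -0.64 to -0.11, from 0.36 to 0.88, from -0.16 to 0.19 and from -0.92 to -0.31. Where 1 knockout total library remained, it was assumed to vary like the other groups.

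The following single genes, none of them called in the comparison named, changed sign. In wild-type polysomal over total RNA, Ndufaf7 was 0.03 with quantile normalization and 0.06 by edgeR, and ranged from -0.39 to 0.30 without single libraries, as Ndufa9 did from -0.15 to 0.12. In the knockout, Ndufa6 was -0.03 with median-of-ratios scaling, and the ranges were -0.43 to 0.44 for Ndufa6, -0.42 to 0.48 for Ndufa1 and -0.41 to 0.22 for Ndufaf4. In the difference between genotypes Ndufa10 was 0.15 with quantile normalization, and Ndufa10 and Ndufaf3 were 0.10 and 0.24 with the length trend removed; Ndufa10 ranged from -0.26 to 0.04. In knockout over wild-type total RNA Ndufa9 was -0.20 with the curve against wild-type total RNA, and ranged from -0.01 to 0.40, and Ndufaf4 from -0.09 to 0.54. In polysomal RNA Ndufa5 was 0.07 with the length trend removed, and Ndufv3 ranged from -0.04 to 0.55. The cause of these changes was not tested.

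Wild-type polysomal and total replicates of the same number share only that number: their deviations correlated at 0.211, -0.22 and -0.0725. With the replicate as a block, 7 complex I genes were higher and 0 lower, with Ndufaf6 (adjusted p = 0.0677) and Ndufb5 (adjusted p = 0.0858) no longer called and Ndufa4 called in addition, and 703 of all genes were higher and 1243 lower. For the knockout and the comparisons between genotypes, no paired analysis was possible because the knockout columns carry no label numbers. At these depths the floor of 3 reads limited Ndufa4l2 only.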
